A study of Mus musculus with 3 samples.

Results

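The 28 genes described here had at least 50% of their estimated isoform level in nuclear RNA in isoforms that the GENCODE M21 annotation classes as nonsense-mediated decay (NMD) isoforms. They were chosen from the measured values of 1 of the 2 deposited quantifications. A gene had to have a protein-coding isoform, a gene TPM (transcript abundance scaled for length and depth) of at least 5 in all 3 libraries, and at least 50% of its summed isoform TPM in NMD isoforms in each library. Of the 55536 annotated genes, 5921 met the first and second conditions, 1989 of these had an annotated NMD isoform, and 28 met the third. The same rule with retained-intron isoforms gave 382 genes.

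RNA was taken from the nuclear fraction of primary macrophages grown from the bone marrow of C57BL/6J mice and sequenced after ribosomal RNA depletion. All cultures had received lipid A, the TLR4-binding part of bacterial endotoxin, at 100 ng/ml for 12 h, then 12 h without it, then 100 ng/ml again for 15 min. These 3 libraries are biological replicates 1, 2 and 3 of 1 group, from 1 µg, 500 ng and 1 µg of RNA. All carry 1 donor identifier, their sex and age were not collected, and separate mice are not stated, so the p-values speak of the spread between these libraries, which may be technical. The design holds no untreated or once-treated cells, so the values are levels and not responses.

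NMD is a surveillance pathway that destroys mRNAs whose stop codon lies too far ahead of the last exon junction. Splicing leaves an exon junction complex near each junction, and the translating ribosome normally strips these complexes off. Where one remains beyond the stop codon, the helicase UPF1 and its partners recruit the decay enzymes. Cells also use such isoforms to limit a gene's output, and many RNA-binding proteins hold down their own mRNA in this way.

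Within each gene the NMD share is the percent of summed isoform TPM that NMD isoforms hold. It chose the genes, so it is given as a description with no test. The median share over the 28 genes was 60.6%, 63.9% and 60.2% in replicates 1, 2 and 3. Over the other 1961 genes with an NMD isoform it was 3.18%, 3.03% and 3.93%. Means ran from 89.8% ± 3.6 (SD, n = 3) for Bak1 to 50% in each library for Gm38394, and 6 genes averaged over 70%. The median range of a gene's share over the 3 libraries was 7.46 percentage points. Nuclear-encoded protein-coding genes together had 2.74% ± 0.17 of their TPM in NMD isoforms, and the 28 genes supplied 11.6% ± 0.43 of that sum.

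**Figure D1:**
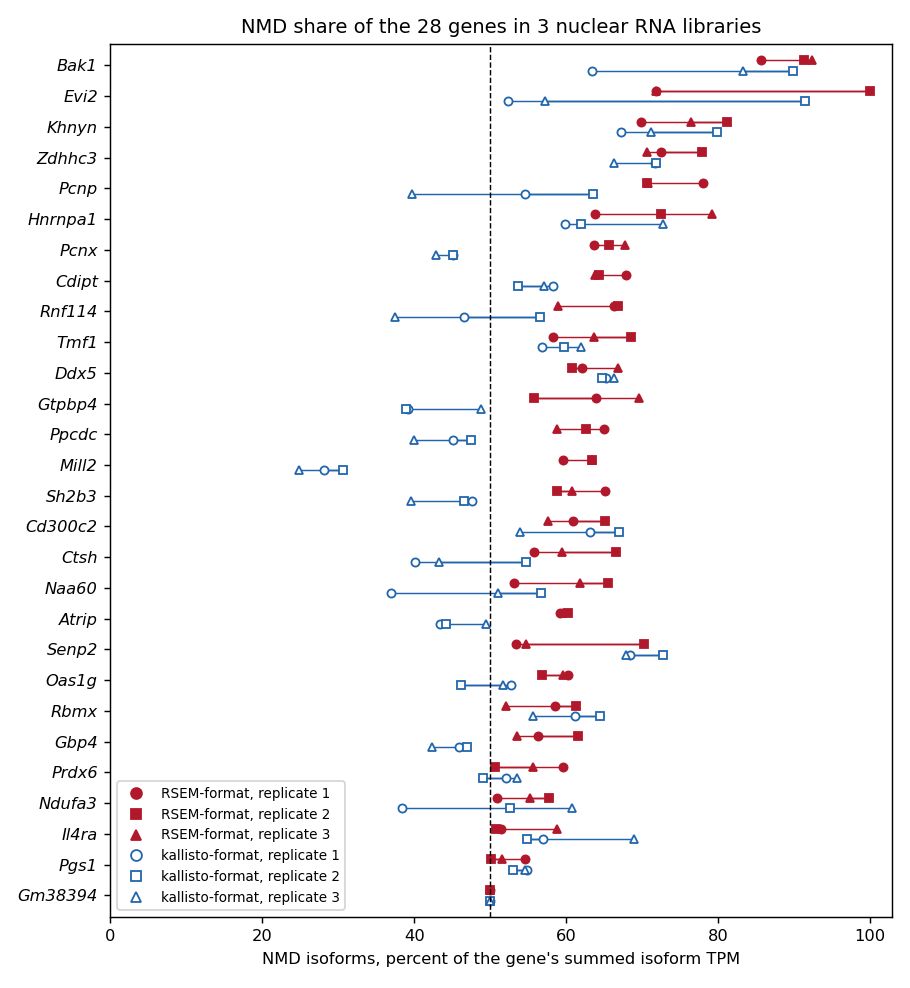
Horizontal axis, percent of each gene's summed isoform TPM in NMD isoforms; each row is a gene, ordered by its mean RSEM-format share. Filled red symbols are the RSEM-format values that chose the genes, open blue symbols the kallisto-format values of the same libraries, each joined over 3 replicates, and the dashed line stands at 50%. Bak1 is highest, with a mean of 89.8%, and Gm38394 sits on the line in both quantifications.

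The deposited transcript tables hold a second quantification of the same libraries, in the format that kallisto writes. It took no part in the choice, but it shares the reads and the annotation and is no further sample. By it the median share over the 28 genes was 52.6%, 54.8% and 53.8% in replicates 1, 2 and 3, against 6.87%, 6.76% and 7.48% over the other 1961 genes. In 14 of the 28 genes it was at least 50% in every library, in 7 it was under 50% in every library, and in 7 it fell on both sides. The genes on both sides were Ctsh, Oas1g, Rnf114, Pcnp, Ndufa3, Naa60 and Prdx6. The kallisto-format mean was lower than the RSEM-format mean in 21 genes and higher in 6. The 4 highest were Bak1 at 78.9%, Khnyn at 72.7%, Zdhhc3 at 69.9% and Senp2 at 69.7%. The 4 lowest were Mill2 at 27.8%, Gtpbp4 at 42.3%, Ppcdc at 44.2% and Pcnx at 44.4%. Like these, Sh2b3 at 44.6%, Gbp4 at 45.1% and Atrip at 45.7% were under 50% in every library. By the kallisto-format values 21 of the 1989 genes reached 50% in every library, and 7 of these were not among the 28.

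**Figure D2:**
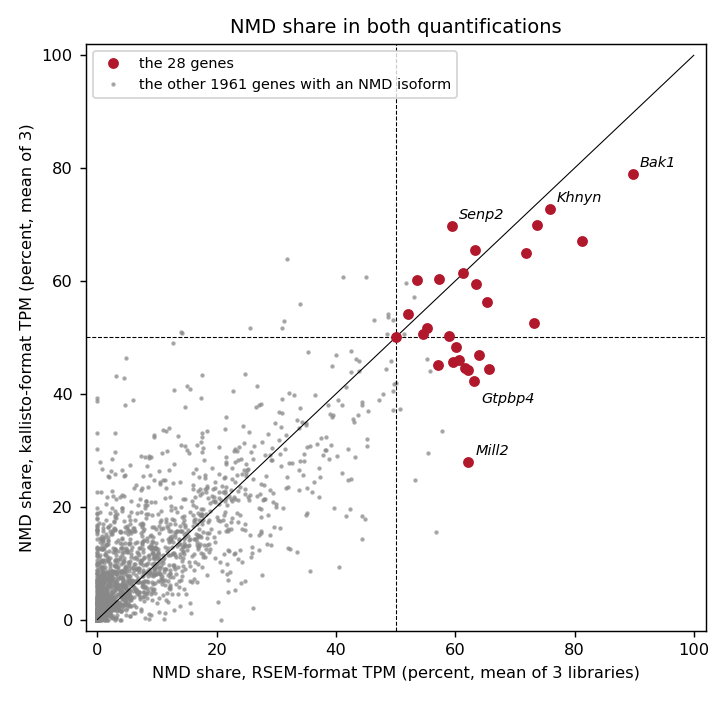
Each point is 1 of the 1989 genes with an NMD isoform; the horizontal axis is its mean RSEM-format NMD share and the vertical axis its mean kallisto-format NMD share, both in percent over 3 libraries. Red points are the 28 genes and grey points the other 1961, the solid line marks equal shares and the dashed lines 50%. Red points lie to the right of 50% by choice, Gm38394 on it; 21 lie under the solid line, with Mill2 farthest down at 27.8%.

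RNA-binding proteins supplied the gene of highest level. Ddx5 encodes a DEAD-box RNA helicase that acts in splicing, transcription and microRNA processing, and occupies chr11:106780355-106789185 (mm10). Its gene TPM was 267, 308 and 292 in replicates 1, 2 and 3, and its NMD share was 62.1%, 60.8% and 66.9%. The isoform Ddx5-208, of the NMD class, had 166, 160.0 and 155 TPM, and the coding isoform Ddx5-201 had 72.0, 83.3 and 62.8 TPM. The NMD isoform was the higher one in all 3 libraries, and the authors' intervals for the 2 isoforms did not overlap in any of them. Its other NMD isoform, Ddx5-205, was listed at 0 TPM in replicate 1 and had 27.5 and 40.3 TPM in replicates 2 and 3. Of the 31-base words of Ddx5-208, 33.4% also occur in transcripts of other genes, Gm12183 first among them, so reads could be shared. Ddx5-208 has 729 bases and 0 junctions that the gene's other classes lack, and all 729 bases lie in introns of Ddx5-201. Whether reads there came from unspliced RNA was not tested. Ddx5-208 keeps a whole intron of Ddx5-201, runs into it, and meets a stop at chr11:106783954-106783956 on the minus strand. The sequences below show how few bases separate the parting of the isoforms from that stop. Each starts with 12 coding bases that both isoforms share, reads 5′ to 3′ on the gene's strand, and comes from the GENCODE M21 transcripts (mm10). Capitals mark the stop codon of the NMD isoform.
Ddx5-208: ccagagggctaggtTAG
Ddx5-201: ccagagggctagatgtg

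Rbmx and Khnyn also parted from their coding isoforms close to the stop. Rbmx encodes hnRNP G, an RNA-binding protein of nuclear splicing complexes. Its 3 libraries had a gene TPM of 12.3, 14.2 and 10.1, and its NMD share was 58.6%, 61.3% and 52.0%. In Rbmx-205 an earlier donor site was used, and the stop lay at chrX:57385217-57385219 on the minus strand, outside the exons of Rbmx-201. Khnyn encodes a KH-domain protein with a nuclease-like fold, known in human cells as a cofactor of the antiviral protein ZAP. At the gene level it had 8.50, 11.8 and 14.0 TPM, and its NMD share was 69.9%, 81.2% and 76.4%. Khnyn-203 had 8.76 ± 2.51 TPM, against 0.80 ± 0.22 TPM for the coding isoform Khnyn-201 (SD, n = 3 each), a ratio of means of 10.95. In Khnyn-203 the exon runs on into the intron, to a stop at chr14:55894101-55894103 on the plus strand. In Khnyn-203 the codon before the stop differs from that of Khnyn-201, and in Rbmx the letters differ from the stop codon on.
Rbmx-205: atgagagttatggtTGA
Rbmx-201: atgagagttatggtaag
Khnyn-203: catcagagagcggTGA
Khnyn-201: catcagagagcgcctg

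Hnrnpa1, which encodes a nuclear protein that packages pre-mRNA and represses splice sites, differed from these in where its leading NMD isoform departs. Its gene TPM was 46.0, 42.2 and 36.1, with an NMD share of 63.8%, 72.5% and 79.2%. Hnrnpa1-203 and the coding isoform Hnrnpa1-202 have the same reading frame of 963 bases and the same stop, and part only beyond it. The last junction lies 90 bases past the stop in Hnrnpa1-203 and 14 bases past it in Hnrnpa1-202. Hnrnpa1-203 had 16.4, 20.6 and 19.2 TPM, against 16.6, 11.6 and 7.38 TPM for Hnrnpa1-202. By these RSEM-format values the 2 isoforms were level in replicate 1. Hnrnpa1-203 was higher in replicates 2 and 3, where the authors' intervals did not overlap. The kallisto-format values gave Hnrnpa1-203 4.74, 3.48 and 1.41 TPM, against 6.57, 6.38 and 0.96 TPM for Hnrnpa1-202. By them Hnrnpa1-203 was the lower one in replicates 1 and 2 and the higher one in replicate 3. The NMD share also holds another NMD isoform, Hnrnpa1-204, with 12.85, 9.99 and 9.43 TPM, whose structure was not compared. Like sequence elsewhere in the genome is a limit, since 74.5% of the 31-base words of Hnrnpa1-203 also occur in transcripts of other genes.

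Several of the 28 genes act in antiviral defence or immune recognition, a grouping made after the genes were known. The lists of 30 interferon-stimulated, 22 inflammatory and 27 TLR4 signalling genes held 0 of the 28. Only 8, 0 and 9 of their genes had an NMD isoform and a TPM of at least 5. The 28 are 1.41% of all 1989 such genes, and counts this small are not read against that share. Oas1g and Gbp4 are not on the interferon-stimulated list. Oas1g belongs to the 2′-5′-oligoadenylate synthetases, which sense double-stranded RNA and activate RNase L. Gene TPM stood at 88.8, 89.5 and 106, and the NMD share was 60.3%, 56.8% and 59.6%. Oas1g-203, of the NMD class, had 53.5, 50.8 and 63.2 TPM, against 10.9, 11.5 and 13.7 TPM for the coding isoform Oas1g-201. The retained-intron isoform Oas1g-202 stood between them at 26.9 ± 2.5 TPM. The exon of Oas1g-203 runs on for 15 codons before a stop, shown here, at chr5:120881837-120881839 on the minus strand. Other Oas1 genes hold 65.5% of the 31-base words of Oas1g-203, so reads could be shared with them.
Oas1g-203: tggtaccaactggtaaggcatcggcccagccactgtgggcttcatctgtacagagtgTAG
Oas1g-201: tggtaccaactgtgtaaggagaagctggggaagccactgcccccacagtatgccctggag

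Il4ra encodes the receptor chain through which IL-4 and IL-13 signal to macrophages. In the mouse a soluble form of this receptor is known to come from an alternatively spliced mRNA with an added exon. Its gene TPM was 78.5, 45.6 and 57.2 in replicates 1, 2 and 3, lowest in replicate 2, and its NMD share was 51.4%, 50.8% and 58.8%. Il4ra-205 carries an extra exon of 114 bases with a stop at chr7:125571951-125571953 on the plus strand. It had 40.3, 23.2 and 33.6 TPM, against 27.3, 16.5 and 19.1 TPM for the coding isoform Il4ra-201. The extra-exon isoform was the higher one in each library. The 6 codons it adds before its stop are printed below, and whether this is the mRNA of the soluble receptor was not tested.
Il4ra-205: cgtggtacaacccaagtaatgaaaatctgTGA
Il4ra-201: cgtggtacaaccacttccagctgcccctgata

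Gbp4, an interferon-induced guanylate-binding GTPase, had a gene TPM of 31.6, 49.1 and 52.3 and an NMD share of 56.3%, 61.5% and 53.5%. Replicate 1 was its lowest library. Gbp4-202 uses an earlier donor site, after 183 bases of the reading frame, and 22.8% of its 31-base words occur in other genes, Gbp6 first among them. Cd300c2, a myeloid receptor of the CD300 family, had 42.4, 40.5 and 43.0 TPM, the steadiest level of the 12 highest genes. Its share was 60.9%, 65.2% and 57.6%, and only 2 isoforms are annotated. Mill2 encodes an MHC class I-like protein. It had 5.12, 7.34 and 5.88 TPM, and its NMD share was 59.6%, 63.5% and 63.4% in the RSEM-format values but 28.1%, 30.6% and 24.8% in the kallisto-format values. Among the 28 genes that was the widest gap between the quantifications. Sh2b3 encodes the adaptor LNK, which restrains cytokine receptor signalling. It had 15.4, 14.1 and 13.2 TPM, and its NMD isoform both skips an exon of 88 bases and keeps an intron. That isoform has 240 bases and 0 junctions that the gene's other classes lack, and 80 of these bases lie in introns of the coding isoform. Whether reads there came from unspliced RNA was not tested.

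Evi2 is a readthrough gene over the membrane protein genes Evi2a and Evi2b, and its isoforms could hardly be told apart. Its gene TPM was 7.22, 8.39 and 5.37. Evi2-201, of the NMD class, held 71.9% of it in replicates 1 and 3 and all of it in replicate 2, where the coding isoform was listed at 0. No 31-base word of Evi2-201 is missing from the gene's other isoform, and 56.6% of its words occur in other genes. The authors' intervals for the 2 isoforms overlapped in all 3 libraries.

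Ctsh had the highest gene TPM of these genes after Ddx5. It encodes cathepsin H, a lysosomal cysteine protease. Gene TPM stood at 144, 183 and 162, and the NMD share was 55.8%, 66.6% and 59.5%. Ctsh-202 skips an exon of 106 bases and reads 9 more, the stop included, to chr9:90062723-90062725 on the plus strand. It had 80.5, 122 and 96.7 TPM, against 38.8, 29.6 and 34.8 TPM for the coding isoform Ctsh-201. The ratio of means was 2.90, and no library of the NMD isoform came within the range of the coding one. The kallisto-format share was 40.2%, 54.7% and 43.3%, under 50% in replicates 1 and 3. Only 27 of the 1208 31-base words of Ctsh-202, those over the new junction, are absent from the gene's other classes.
Ctsh-202: tggatgaaacagtggcatTGA
Ctsh-201: tggatgaaacagcatcaaaag

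Enzymes that modify other proteins are described next. Zdhhc3, a Golgi palmitoyltransferase, had 8 NMD isoforms among 11, more than any other of the 28 genes. It had 10.4, 12.2 and 8.95 TPM, and its NMD share was 72.5%, 78.0% and 70.7%. Zdhhc3-207 had 3.75, 4.14 and 3.20 TPM, against 1.66, 1.25 and 1.51 TPM for the coding isoform Zdhhc3-208. Its exon runs past the coding donor site and shifts the frame into a stop at chr9:123089128-123089130 on the minus strand, as the pair below shows. Rnf114, a ubiquitin ligase, had 30.9, 38.0 and 36.4 TPM and an NMD share of 66.4%, 66.9% and 58.9%. By the kallisto-format values its share was 46.6%, 56.6% and 37.5%, under 50% in replicates 1 and 3. Rnf114-203 skips an exon of 151 bases. Senp2, a SUMO protease, had 18.3, 18.9 and 14.0 TPM and an NMD share of 53.4%, 70.3% and 54.8%. Its kallisto-format share, 68.5%, 72.8% and 67.9%, was higher than its RSEM-format share in every library. Naa60, an N-terminal acetyltransferase, had 19.2, 24.9 and 17.3 TPM. Its leading NMD isoform was Naa60-201 in replicates 1 and 3, at 9.11 and 9.66 TPM, and Naa60-202 in replicate 2, at 8.69 TPM. Naa60-201 has the same stop as the coding isoform Naa60-212, in which the last junction also lies 186 bases past the stop.
Zdhhc3-207: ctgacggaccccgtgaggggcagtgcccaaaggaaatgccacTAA
Zdhhc3-208: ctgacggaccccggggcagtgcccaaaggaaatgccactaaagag

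Lipid, coenzyme and redox enzymes were 5 of the 28. Cdipt, the phosphatidylinositol synthase, had 30.4, 32.8 and 29.2 TPM and an NMD share of 67.9%, 64.4% and 63.8%. Cdipt-207 had 16.4, 18.4 and 15.3 TPM, against 9.13, 11.7 and 7.88 TPM for Cdipt-201, and was higher in each library. It uses another acceptor site and reads 16 bases from there, the stop included, to chr7:126978879-126978881 on the plus strand. Pgs1, the phosphatidylglycerophosphate synthase of cardiolipin synthesis, had 20.3, 14.9 and 19.1 TPM and lay just inside the threshold, at 54.6%, 50.1% and 51.6%. Retained-intron isoforms held another 38.8% of it. Ppcdc, of coenzyme A synthesis, had 11.8, 16.7 and 13.5 TPM and an NMD share of 65.1%, 62.6% and 58.9%. Ndufa3, a subunit of respiratory complex I, had 16.8, 26.9 and 19.1 TPM and 142, 150 and 161 expected counts, the fewest of the 28 genes. Its share was 51.0%, 57.8% and 55.3%, and the authors' intervals of its NMD and coding isoforms overlapped in every library. Of its expected counts, which are not scaled for length, NMD isoforms held 27.6%, 34.3% and 33.8%. Its leading NMD isoform has 343 bases, against 515 for the coding one. Prdx6, a peroxiredoxin, had 7.04, 10.6 and 5.08 TPM and a share of 59.6%, 50.7% and 55.7%.
Cdipt-207: gcatctgcacagttcctccgctcagTGA
Cdipt-201: gcatctgcacagttctgtggtgcgaggc

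Bak1 had the highest NMD share of all. It encodes a BCL2-family protein that opens the outer mitochondrial membrane in apoptosis, and a short frame-shifting exon of this gene is known from mouse neurons. The gene had 17.3, 18.6 and 18.9 TPM, and its NMD share was 85.6%, 91.3% and 92.4%. Both NMD isoforms contributed: Bak1-201 had 8.20, 9.15 and 10.2 TPM and Bak1-204 had 6.63, 7.84 and 7.23 TPM. The coding isoform Bak1-202 had 1.11, 1.62 and 0.37 TPM. The kallisto-format share was 63.4%, 89.9% and 83.3%, also the highest by mean. Bak1-201 carries an extra exon of 20 bases, which can be read below straight after the first 12 bases and ahead of the sequence that both isoforms then continue. The shifted frame stops at chr17:27021256-27021258 on the minus strand, 89 bases before the last junction. Whether this is the exon known from neurons was not tested.
Bak1-201: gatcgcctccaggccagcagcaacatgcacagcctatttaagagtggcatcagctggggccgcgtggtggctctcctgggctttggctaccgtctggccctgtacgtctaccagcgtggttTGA
Bak1-202: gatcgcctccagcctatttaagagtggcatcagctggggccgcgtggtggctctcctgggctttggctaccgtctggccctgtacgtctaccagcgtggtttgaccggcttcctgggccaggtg

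The other genes, 6 in all, fall into no common class. Pcnp, a nuclear PEST-motif protein, had 22.7, 32.3 and 22.1 TPM and a share of 78.0%, 70.7% and 70.8%. Its kallisto-format share spread from 39.7% in replicate 3 to 63.5% in replicate 2. Gtpbp4, a nucleolar GTPase of ribosome assembly, had 10.1, 9.80 and 6.45 TPM and a share of 63.9%, 55.8% and 69.7%. Tmf1, a golgin, had 15.0, 15.0 and 13.4 TPM and a share of 58.2%, 68.6% and 63.7%. Atrip, the partner of the checkpoint kinase ATR, had 6.51, 7.99 and 6.73 TPM and a share of 59.2%, 60.3% and 59.6%. Its NMD isoform shares 25.2% of its 31-base words with other genes and overlaps Trex1. Pcnx had 11.1, 12.5 and 11.0 TPM and a share of 63.7%, 65.7% and 67.8%. Gm38394 is a readthrough gene over Zbed6 and Zc3h11a, with 16.0, 23.0 and 15.7 TPM. Its NMD and coding isoforms are identical in sequence, and both quantifications gave each exactly 50%, so its place among the 28 carries no measurement of splicing.

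**Figure D3:**
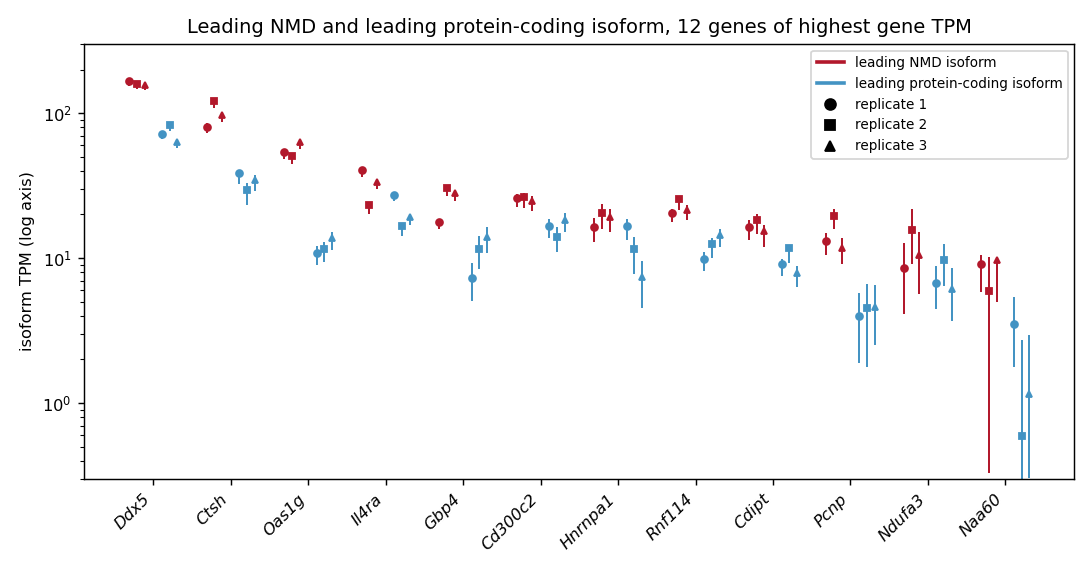
Isoform TPM on a log axis for the 12 genes of highest gene TPM; red, the leading NMD isoform, left of blue, the leading protein-coding isoform. Symbols are the 3 replicates and vertical lines the authors' intervals, which lie around their posterior mean and need not be centred on the symbol. Red lies above blue in every library for Ddx5, Ctsh, Oas1g, Il4ra, Gbp4 and Cd300c2, and the intervals of Ndufa3 overlap.

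An NMD isoform was the gene's leading isoform of any class in 27 of the 28 genes, and in 82 of the other 1961 genes, which follows from the rule. The authors' interval of the leading NMD isoform lay above that of the leading coding isoform in all 3 libraries for 22 genes. It did so in 2 libraries for Hnrnpa1, Naa60 and Senp2, and in none for Ndufa3, Gm38394 and Evi2. Protein-coding isoforms held a median of 28.9% ± 1.5 of the genes' TPM and retained-intron isoforms 4.31% ± 0.11. Pgs1, Atrip, Oas1g and Prdx6 had the highest retained-intron shares, at 38.8%, 30.0%, 28.4% and 24.3%. These 4 were picked out after their values were seen.

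**Figure D4:**
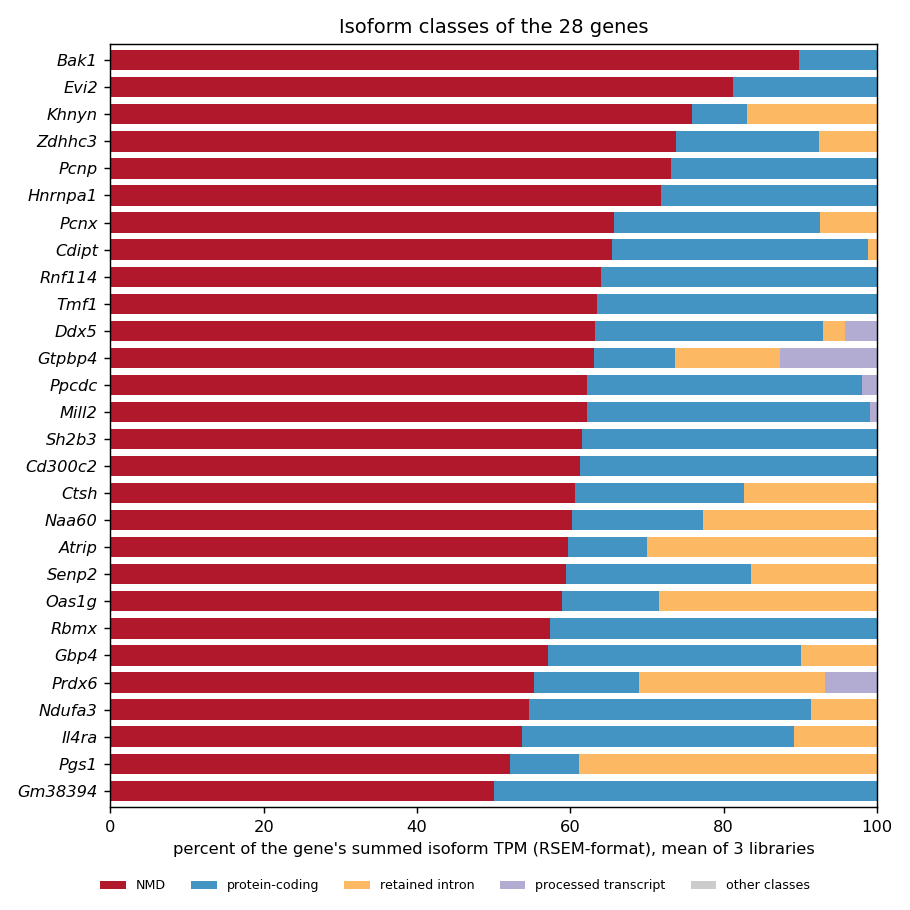
Stacked bars give, for each of the 28 genes, the percent of summed isoform TPM in each annotated isoform class, as the mean of 3 libraries. NMD isoforms (red) fill at least 50% of every bar by the rule; retained-intron isoforms (orange) reach 38.8% in Pgs1.

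Annotated structure was not part of the rule, although the NMD class is itself assigned from the position of the stop. The leading NMD isoform of each gene was compared with its coding isoform of highest mean TPM among those with an annotated stop. In all 28 the last junction lay more than 50 bases past the stop, by 56 to 3630 bases with a median of 311. Among the coding isoforms that was so for Naa60 and Gm38394. The stop differed between the isoforms in 25 genes and was the same in Hnrnpa1, Naa60 and Gm38394.

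The first points at which the reading frames parted were mixed, and a first parting need not be what brings the stop. In 6 genes the reading frames parted where an exon was skipped, as in Ctsh, Rnf114, Senp2, Tmf1, Gtpbp4 and Prdx6. The exon skipped in Gtpbp4 has 171 bases, a whole number of codons, and its stop lay in an intron of the coding isoform. An exon ran on into the intron in 6, of which Ddx5 and Sh2b3 keep a whole intron. Another acceptor site of the same exon was used in 5, an earlier donor site in 3, and an extra exon entered in 3, which were Il4ra, Bak1 and Mill2. In Pcnx and Evi2 the annotated reading frames share no stretch. The NMD isoforms of Pgs1, Senp2 and Pcnx have no annotated start codon. In 18 genes the bases of the NMD stop lay inside an exon of the coding isoform, in 6 in one of its introns, in 2 in an extra exon and in 2 outside it.

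**Figure D5:**
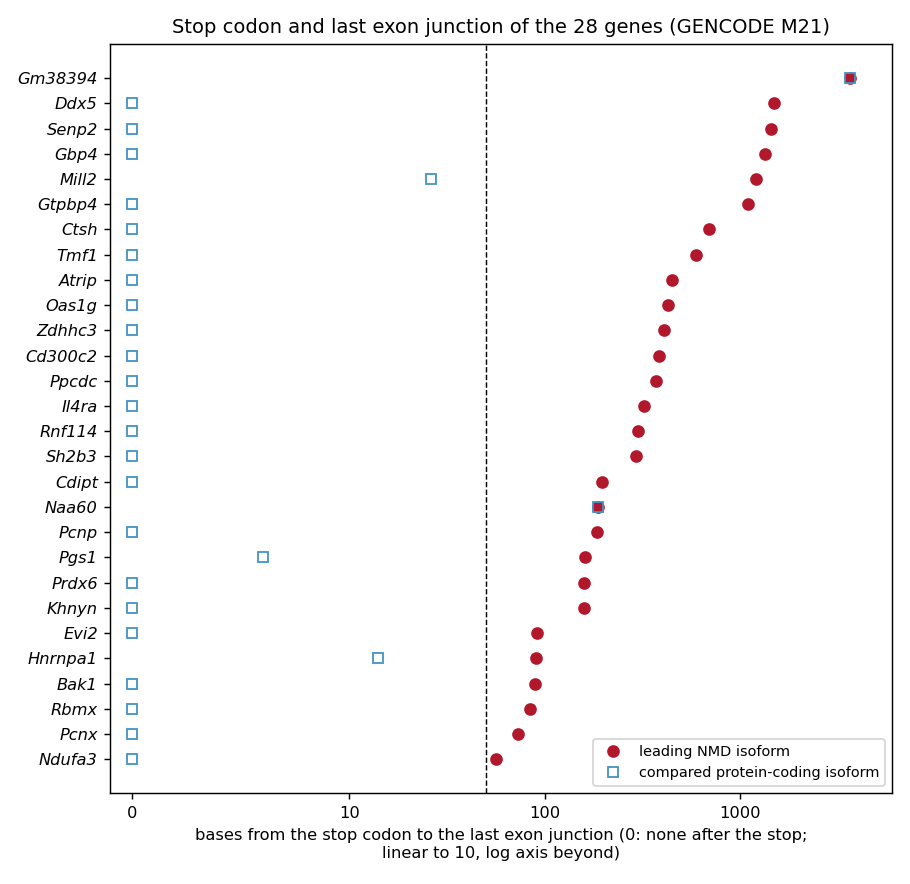
Bases from the stop codon to the last exon junction (0 where no junction follows; linear to 10, log axis beyond) for the 28 genes, red circles for the leading NMD isoform and blue squares for the compared protein-coding isoform. The dashed line stands at 50 bases; all red circles lie beyond it, from 56 in Ndufa3 to 3630 in Gm38394, as do 2 blue squares.

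Sequence that only the NMD class contains was scarce. In 5 genes the leading NMD isoform held no 31-base word that the gene's other classes lack: Ndufa3, Naa60, Gm38394, Ppcdc and Evi2. In 12 it held 1 to 99 such words and in 11 at least 100. The median was 53.5 words, or 2.36% of the isoform, in the 28 genes. In the other 1961 genes it was 30.0 words, or 4.48%, with none in 128 of them. Among the 11 genes with at least 100 words, the kallisto-format share was at least 50% in every library in 7. Among the 12 with 1 to 99 words it was so in 5, and among the 5 with none in 2. Leading NMD isoforms had a median length of 2275 bases, against 2463 bases for the leading coding isoforms. In the other 1961 genes the medians were 1204 and 2950 bases.

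Other genes' transcripts are a second limit. Over 10% of the 31-base words of the leading NMD isoform occur in another gene for 10 of the 28, and 12 leading NMD isoforms overlap exons of another gene. Whether strand was used in counting is not stated, so levels of Il4ra, Bak1, Pgs1, Sh2b3, Khnyn, Zdhhc3 and Naa60 could include reads of a gene on the opposite strand.

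The spread of these genes between libraries was set beside that of all genes. Expected counts over annotated genes were 23826101, 19312032 and 21730342 in replicates 1, 2 and 3. Each library was set against the other 2 with edgeR's quasi-likelihood test on rounded expected counts, with Benjamini-Hochberg adjustment over 14350 genes, 28 of them the genes described here. For replicate 1, 0 of the 28 passed an adjusted p of 0.05, against 0.341% of all genes tested. For replicate 2, 0 of the 28 and 0% of all genes passed, and for replicate 3, 0 of the 28 and 0.00697%. At an unadjusted p under 0.05 there were 1, 2 and 1 of the 28, against 6.21%, 6.18% and 3.62% of all genes. DESeq2 also called 0 of the 28 in each. With 1 library on a side, 0 calls do not show that the levels were alike. The lowest unadjusted p-values belonged to Pgs1 in replicate 2, with a log2 fold change of -0.61 and an edgeR adjusted p of 0.77, and to Khnyn in replicate 3, with 0.61 and an adjusted p of 1.00. Il4ra, the next, had a log2 fold change of -0.81 in replicate 2 (edgeR adjusted p = 0.77) and 0.67 in replicate 1 (edgeR adjusted p = 0.76). The median SD of log2(TPM + 1) was 0.22 over the 28 genes and 0.20 over the 5921. Over the 28 it was 0.18, 0.13 and 0.16 without replicates 1, 2 and 3. A median SD of 2 values tends to be lower than that of 3, so these are not read against 0.22.

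Transcripts of the pathway's own factors were detected in this nuclear RNA, and their proteins were not measured. Of 18 NMD and termination factors, 17 had a TPM of at least 1 in every library. Only 3 had an NMD isoform and a TPM of at least 5, and none of these was among the 28. Smg1, the kinase that phosphorylates UPF1, had the highest level at 49.6 ± 7.6 TPM. Pnrc2 and Smg5, which link phosphorylated UPF1 to decay, had 21.7 ± 4.8 and 17.8 ± 1.0 TPM. The termination factor gene Gspt2 was lowest at 0.60 ± 0.08 TPM. All 9 exon junction complex genes had a TPM of at least 1 in every library. None had both an NMD isoform and a TPM of at least 5, so none could be among the 28. Of both lists together 26 genes reached a TPM of at least 1 in every library, against 16 by kallisto-format gene sums. A TPM of 1 need not be the same level in both formats. Ddx5-208, for example, had 166, 160 and 155 TPM in the RSEM-format values but 58.3, 83.8 and 17.3 in the kallisto-format values. Acin1 had 77.8 ± 6.3 TPM, Rnps1 19.7 ± 2.8, the core helicase Eif4a3 16.6 ± 4.0 and Casc3 10.7 ± 1.3, while Magohb was lowest, with 4.77, 3.48 and 3.74 TPM.

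Splicing regulators are known for NMD isoforms. The 28 are 1.41% of the 1989 genes with an NMD isoform. Of 29 hnRNP family genes, 15 with an NMD isoform and a TPM of at least 5, only Hnrnpa1 was a member. Of 13 SR family genes, 11 of them so eligible, and of 4 CLK kinases, all eligible, none was a member; counts this small are not read against that share. Among the 11 SR family genes with an NMD isoform and a TPM of at least 5 the median NMD share was 5.27%, and Tra2a was highest at 30.9% ± 8.6. By the kallisto-format values Tra2a reached 51.6% and was 1 of the 7 genes over 50% outside the 28. Clk2 had 34.4% ± 1.8. Tra2a and Clk2 were named after their values were seen. All 20 macrophage marker genes had a TPM of at least 1 in every library. None of 9 T and NK cell, 6 B cell, 9 granulocyte, 8 stromal and 6 dendritic cell markers did, and 1 of 7 erythroid markers did. Fewer cells of a type and less RNA per cell cannot be told apart in bulk RNA.

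The genes nearest to the share threshold on its outer side included 1 of far higher level. Mx1, an interferon-induced GTPase, had 405, 437 and 720 TPM with NMD shares of 58.1%, 65.4% and 49.9%, below 50% in replicate 3. Its kallisto-format shares were 30.6%, 36.6% and 33.0%, under 50% in every library. Ccdc167 had shares of 49.7%, 58.9% and 57.4%, and Rpsa, a ribosomal protein gene, 55.03%, 49.4% and 55.02%. The 3 just inside were Gm38394, Pgs1 and Prdx6, whose lowest shares were 50%, 50.1% and 50.7%.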

How the data were processed

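Nuclear total RNA of 3 libraries was analysed as 1 group. The expected counts are the authors' estimated counts per gene or transcript, deposited unnormalised for each library. The deposited TPM and FPKM values were scaled by the authors for length and depth. Per the accompanying notes and file headers, tables were made on mm10 with GENCODE M21, 1 with columns as RSEM writes them and 1 as kallisto writes them. Neither file headers nor labels name the aligner or the quantifier. The deposited percent of a gene's isoforms was not used, and shares were recomputed from TPM with isoform classes taken from the kallisto-format identifiers (95 of 141862 transcripts had none). Isoforms share most of their sequence, so each level is a model estimate, and the SD over 3 libraries does not hold errors common to all of them. Total expected counts were 19312032 to 23826101 per library; intervals are the authors' and cover estimation within a library only. Rows that name no gene held 0.827%, 0.275% and 0.0547% of counts in replicates 1, 2 and 3 and were left out.

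The members and lists were chosen with earlier results of these data known. Genes were named by a rule: the 12 of highest TPM, the 6 highest and 6 lowest NMD shares, the 4 highest and 4 lowest kallisto-format shares, members of any of 18 gene lists, and 3 genes on each side of the threshold. For the NMD and exon junction complex lists it took the 4 highest and the lowest, of which 1 gene is not reported here. This gave 24 of the 28 genes; Atrip, Rbmx, Sh2b3 and Tmf1 were added after their values were seen. Structures, coordinates (counted from 1) and sequences come from GENCODE M21. Counts were rounded and tested with edgeR 4.0.16 (filterByExpr, TMM, robust quasi-likelihood fit), with DESeq2 1.42.0 as alternative, in R 4.3.3; the rest used matplotlib 3.10.9, numpy 2.4.6, pandas 2.3.3 and Python 3.11.15. Tested on simulated counts for replicate 1 against the other 2 libraries over 14350 genes, edgeR recovered 21 of 200 genes changed 2-fold, 192 of 200 changed 4-fold and 200 of 200 changed 8-fold.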

Additional observations from a re-analysis of the deposited data

Results flagged for a closer look

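The row for phiX, the phage DNA added to sequencing runs, lay outside every comparison and held counts in each library. Replicate 1 had 198647 expected counts there, replicate 2 had 53233 and replicate 3 had 11859, each above the limit of 3 counts that a count of 0 allows. It entered no library size and no share.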

How the results depend on the processing

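The number of genes that met the rule was 28. It was 53 with a gene TPM floor of 1, 82 with no floor, 55 at a share of 40%, 9 at 60%, 1 at 75%, and 96 with NMD set over NMD plus protein-coding isoforms. It ran from 33 to 37 when 1 replicate was left out. The rule asks for every library, so leaving 1 out can only keep or add genes. Kallisto-format TPM gave 21, 14 of them shared with the 28, and expected counts gave 33, with 21 shared. By expected counts the mean NMD share was under 50% in 5 of the 28. These were Ndufa3 at 31.9%, Prdx6 at 40.9%, Pgs1 at 43.0%, Tmf1 at 48.6% and Il4ra at 49.5%. The 14 genes at or above 50% in the kallisto-format values became 5 at 60%, and 15 to 16 without 1 replicate, where the number could again only stay or rise. Genes that differed in 1 library from the other 2 numbered 49, 0 and 1 for replicates 1, 2 and 3 by edgeR, and 72, 11 and 34 by DESeq2. With DESeq2 size factors in edgeR replicate 1 gave 12. With no filter on low counts the numbers were 0, 349 and 108. The causes were not tested. No paired analysis was possible because there is 1 group. The leading NMD isoforms of Ndufa3, Naa60, Gm38394, Ppcdc and Evi2 hold no 31-base word of their own class, so more depth alone would add no such word to their shares.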
